A study of Homo sapiens with 9 samples.

Results

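ATP-binding cassette (ABC) transporter genes were followed through RNA-seq libraries of cells labelled as human neuroblastoma. A gene was taken as a member when it is annotated as protein coding and its symbol is ABC, a subfamily letter from A to G and a number. Of the 22290 genes in the table, 42 were members, out of 45 such symbols in the annotation. ABCB6, ABCB11 and ABCC9 were not analysed here. The members were 12 ABCA, 7 ABCB, 10 ABCC, 4 ABCD, 1 ABCE, 3 ABCF and 5 ABCG genes.

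The study asked which transcripts differ when the amount of TRAP-1, a mitochondrial chaperone related to Hsp90, is altered in IMR-32, an established human neuroblastoma line. The 9 libraries were made from total RNA as mRNA libraries with the TruSeq v2 kit, which does not record the strand of a transcript. The 3 parental libraries carry the genotype label WT, another 3 the label TRAP-1 knockdown (KD) and another 3 the label TRAP-1 overexpression (OE). The KD and OE cells had been developed earlier by the study's authors, and whether each is a single clone, or whether the parental cells carry any vector, was not given.

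Each value is an rlog, a regularised log2 count that the authors scaled for library size and shrank toward the mean of the gene. Differences of rlog are therefore smaller than differences of log2 counts, more so at low levels. The study states a single read coverage for its sequencing, and the read depth of each library cannot be recovered from such values. Nothing in the labels says that the 3 libraries of a group came from separate cultures, so p-values here measure only the spread between these libraries. In bulk RNA, fewer cells of a kind and less RNA per cell cannot be told apart.

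ABC proteins bind and hydrolyse ATP. Most carry substrates across a membrane, from lipids and sterols in the ABCA and ABCG subfamilies to drug conjugates, bile acids and nucleotides in ABCC and fatty acyl-CoA in the peroxisomal ABCD members. The ABCE and ABCF proteins lack membrane-spanning parts and act on ribosomes and in translation. In tumours, neuroblastoma among them, the family is known for pumps such as ABCB1, ABCC1 and ABCG2 that export anticancer drugs.

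TRAP1 itself (ENSG00000126602, chr16:3651639-3717553, minus strand) was read first, because the labels rest on it. Its rlog was 10.67, 10.66 and 10.65 in the parental libraries, 10.79, 10.79 and 10.83 in the KD libraries and 10.67, 10.63 and 10.74 in the OE libraries. TRAP1 RNA was thus higher, not lower, in all 3 libraries labelled KD, and the OE and parental libraries overlapped. The difference from parental was 0.14 for KD (SE 0.025, adjusted p = 1.8e-05 from limma) and 0.018 for OE (95% confidence interval -0.033 to 0.069, adjusted p = 0.643 from limma). Without OE replicate 3 the OE difference was -0.012, and with the median of each 20-Mb block of chromosome removed it was 0.064 (adjusted p = 0.0343 from limma, against up to 0.782 under the other alternatives). Other annotated genes overlap 28.5% of the exonic bases of TRAP1. KD and OE below name the labels of the libraries, not a measured level of TRAP1.

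Markers of neuroblastoma went only partly with the cell label. Of 19 listed genes of adrenergic neuroblastoma 12 had a value, 7 of these had a mean rlog of at least 5, and 4, PHOX2A, TH and MYCN among them, lay under 3. MYCN, which is amplified in IMR-32, had a mean rlog of 2.54, and the identity of the line, which the study states was authenticated, was not tested here. The most abundant was TFAP2B, with a mean rlog of 13.9. Summed over the list and put back on the log2 scale, the adrenergic level was 13.87, 13.87 and 13.88 in the parental libraries, 14.18, 14.17 and 14.18 in the KD libraries and 14.07, 14.10 and 14.10 in the OE libraries. All labelled libraries lay above the parental ones in this sum, most of which is TFAP2B (0.35 in KD and 0.26 in OE), while by gene 4 were called higher and 5 lower in KD, and 1 higher and 3 lower in OE. Of 13 fibroblast or Schwann-like genes 11 had a value, led by PRRX1 at 12.4, and their summed level was 12.97, 13.02 and 13.01 in the parental libraries, 13.66, 13.66 and 13.66 in the KD libraries and 13.46, 13.45 and 13.47 in the OE libraries. PRRX1 rose by 1.29 in KD and by 0.69 in OE. Markers of other lineages gave smaller sums. Epithelial markers (9 of 13 with a value, led by KRT18 at 12.0) summed to 12.52, 12.52 and 12.51 in the parental libraries, 12.53, 12.57 and 12.59 in the KD libraries and 12.39, 12.38 and 12.40 in the OE libraries. For endothelial or immune markers (7 of 10, led by PECAM1 at 9.50) the sums were 10.09, 10.12 and 10.09 in the parental libraries, 10.23, 10.22 and 10.19 in the KD libraries and 9.65, 9.71 and 9.79 in the OE libraries. The mesenchymal sum was higher in both labelled groups as well, with PRRX1 its most abundant gene, but by gene only 2 of the 11 were called higher and 2 lower in KD, and 5 higher in OE. The part of any such shift in the ABC differences was not tested.

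The cells expressed a broad set of ABC genes. A mean rlog of at least 5 over the 9 libraries was reached by 27 members, namely 8 ABCA, 6 ABCB, 6 ABCC, 3 ABCD, 1 ABCE, 2 ABCF and 1 ABCG gene. Levels can be compared between genes only per length, here as rlog minus log2 of the exon length in kb. On that scale ABCF1, which acts in translation initiation, had the highest parental level, 10.32. ABCB10, a transporter of the mitochondrial inner membrane, followed at 8.76, and ABCC3, an exporter of conjugates, at 8.72. Next in order of parental level per length came ABCC1 at 8.29, ABCF3 at 8.25 and ABCC4 at 8.09. ABCB1 stood far below these drug exporters, at 4.65, and ABCG2 at 4.39. Taken back from the log2 scale, the members held between 0.111% and 0.114% of the summed values of a library. All 3 KD and all 3 OE libraries lay below all 3 parental ones in this share, which is set mostly by the abundant members.

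**Figure D1:**
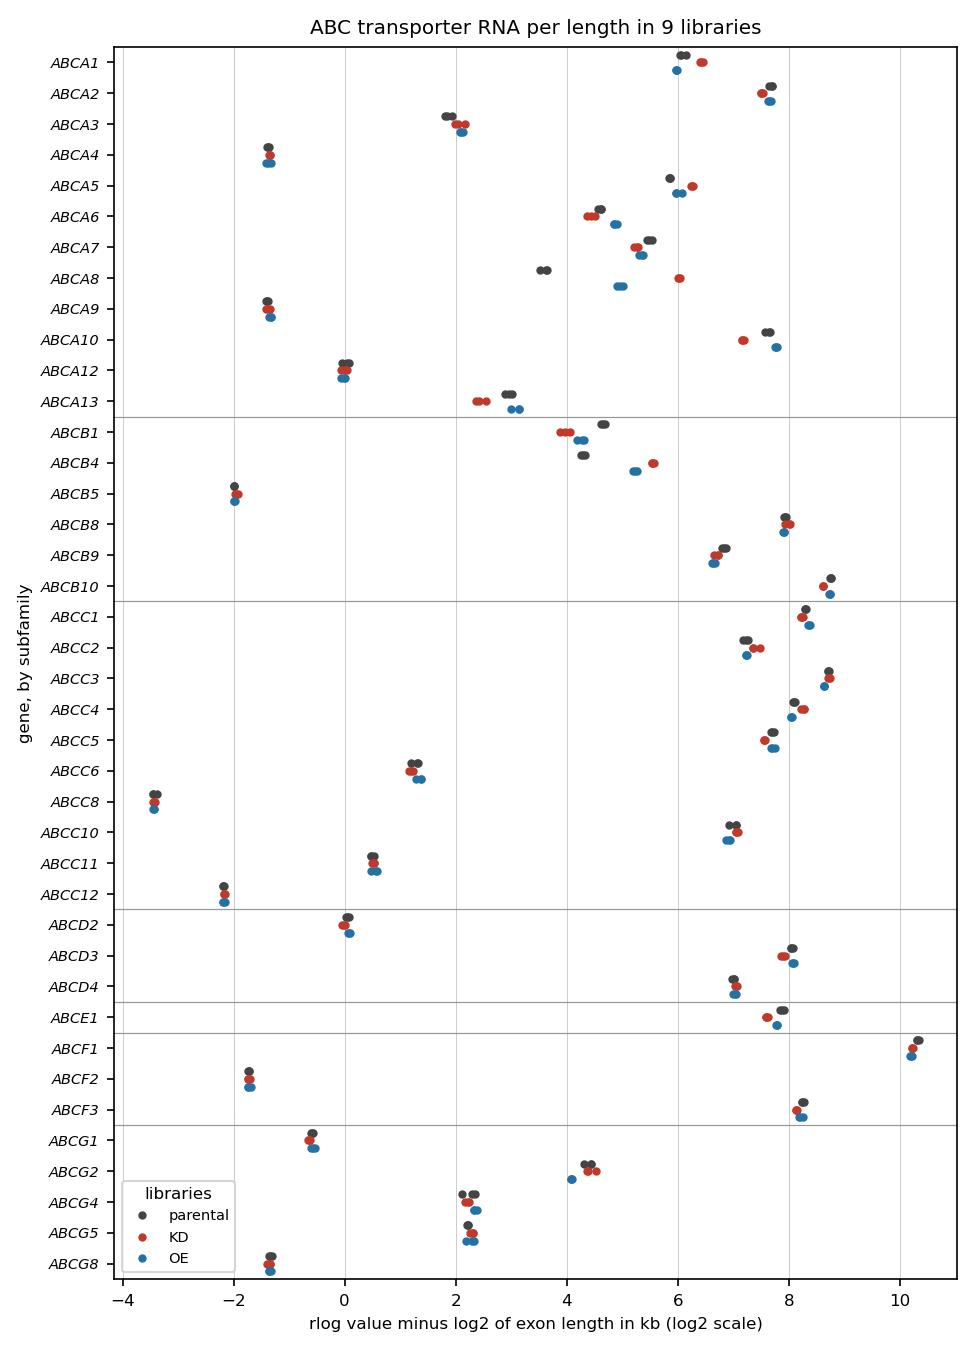
Level of members in every library, as rlog minus log2 of the exon length in kb (log2 scale), coloured by group. ABCF1 has the highest parental level, 10.32, and in ABCA8 the 3 groups are visibly apart.

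Against parental, 9 members were higher and 15 lower in the KD libraries at an adjusted p under 0.05 (limma, adjusted over all 22290 genes), and such genes are the ones named as called. Over all genes 26.9% were called higher and 26.9% lower, so calls were common throughout the table. Among the 27 members at or above a mean rlog of 5, 7 were higher and 14 lower, together 77.8% against 71.7% of the 14000 genes at that level. The median difference of these 27 was -0.069, against -0.0012 over all genes at that level. With a difference of over 0.5 required as well, 4 members were called in KD (ABCA8, ABCB4, ABCB1 and ABCA13), where 4.98% of all genes were. The study set this size rule on log2 fold changes, with p under 0.05. Here it is set on differences of rlog, which are smaller, and with adjusted p. The counts are therefore not those that the study's own rule would give.

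In the OE libraries 9 members were higher and 10 lower than in parental cells, where 16.9% of all genes were called higher and 18.0% lower. With the median of each 20-Mb block removed, OE gave 13 higher and 9 lower members, so which direction held more members depends on that step, and so it did over all genes (3762 higher and 4002 lower before, 4909 and 3720 after). Of the 27 members at a mean rlog of at least 5, 63.0% were called in OE, against 50.3% of all genes at that level. Their median difference was -0.022, against -0.0038. Past the size rule stood 2 members in OE, ABCA8 and ABCB4, where 0.897% of all genes did.

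KD and OE were set against the same 3 parental libraries, so their differences share that error and are given side by side. ABCA3, ABCA5, ABCA8 and ABCB4 were called higher in both. ABCA7, ABCB1, ABCB9, ABCE1 and ABCF1 were called lower in both. Opposite calls were also seen, with ABCA1 higher in KD and lower in OE, and ABCA6, ABCA10, ABCA13 and ABCC1 the other way round. Called in KD alone were ABCA2, ABCB5, ABCB10, ABCC2, ABCC4, ABCC5, ABCD2, ABCD3 and ABCF3, and in OE alone ABCA9, ABCC3, ABCC10 and ABCG2. Called in neither comparison were 14 members, which does not show that they were equal.

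**Figure D2:**
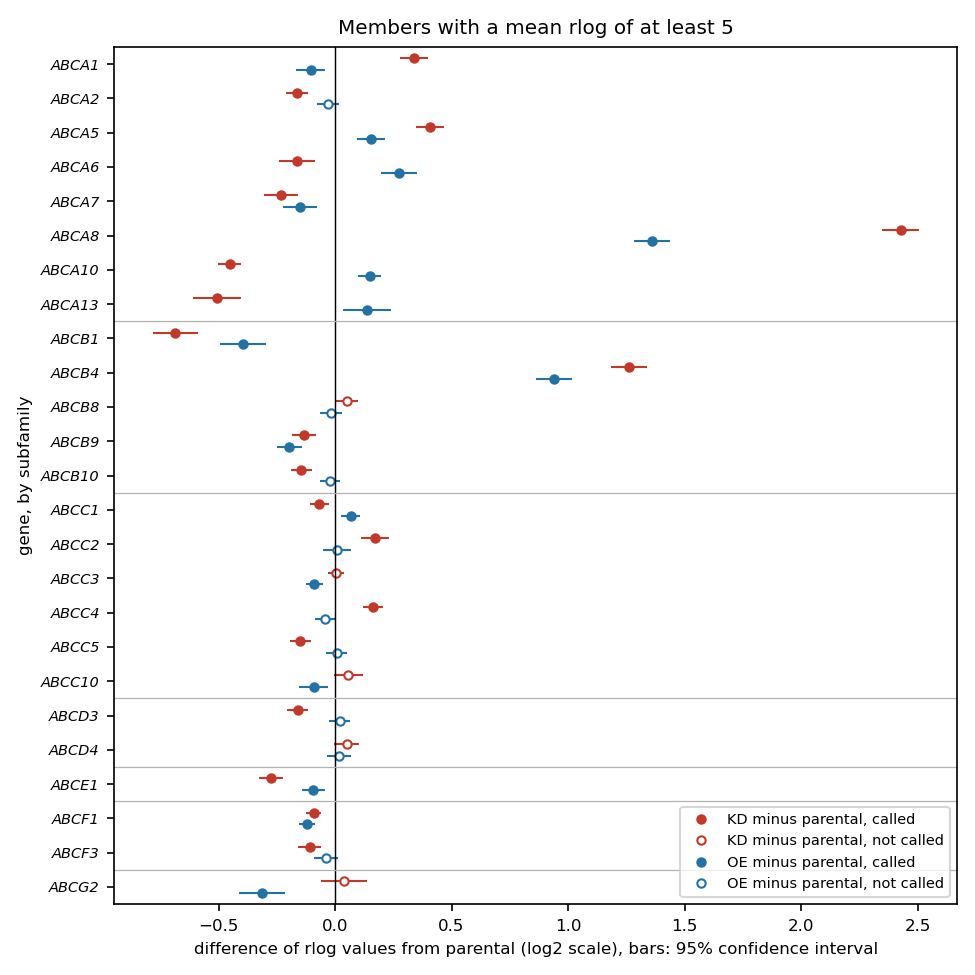
Difference of rlog (log2) from parental in the KD and the OE libraries for members with a mean rlog of at least 5; bars are 95% confidence intervals and filled points are called at an adjusted p under 0.05. ABCA8 (2.43 in KD, 1.36 in OE) and ABCB4 (1.26 and 0.94) lie farthest to the right.

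ABCA8 belongs to a cluster of 5 related genes on chromosome 17, where ABCA8, ABCA9, ABCA6, ABCA10 and ABCA5 follow each other on the minus strand. In KD, 2 of the 5 were called higher and 2 lower, where 26.9% of all genes were higher and 26.9% lower. In OE, where 16.9% of all genes were called higher, all 5 were, though ABCA9, at a mean rlog of 1.80, differed by only 0.058. It lost that call without parental replicate 2, parental replicate 3, OE replicate 1 or OE replicate 2, and with no variance trend, with differences of 0.047 to 0.084 over all alternatives. The proteins are taken to move lipids, and the substrates of several of them are little known.

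ABCA8 (ENSG00000141338, chr17:68867289-68955392, minus strand) moved most. Its rlog was 7.02, 7.13 and 7.12 in the parental libraries, 9.53, 9.52 and 9.50 in KD and 8.40, 8.45 and 8.50 in OE. The 3 groups did not overlap, with OE between parental and KD. ABCA8 rose by 2.43 in KD, 5.38-fold on the rlog scale (SE 0.038, adjusted p = 6.2e-31 from limma), and by 1.36 in OE, 2.57-fold (adjusted p = 3.5e-23). It ranked 5 of all 22290 genes by increase in KD and 3 in OE. OE lay below KD by a difference of -1.07 (adjusted p = 3.0e-21 from limma).

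Its neighbours in the cluster did not all follow. ABCA10 (ENSG00000154263, chr17:69147214-69244846, minus strand) read 10.65, 10.71 and 10.73 in parental, 10.26, 10.23 and 10.23 in KD and 10.85, 10.83 and 10.84 in OE libraries. It fell by 0.45 in KD (adjusted p = 9.3e-17 from limma) and rose by 0.15 in OE (adjusted p = 9.3e-06), with no overlap between the 3 groups. ABCA6 (ENSG00000154262, chr17:69078702-69141895, minus strand) showed the same order, from 8.33, 8.18 and 8.25 in KD through 8.38, 8.44 and 8.43 in parental to 8.72, 8.68 and 8.68 in OE libraries. Its differences were -0.16 in KD and 0.28 in OE (adjusted p = 3.9e-04 and 4.2e-07 from limma). ABCA5 (ENSG00000154265, chr17:69244311-69327244, minus strand), at the far end, was higher in both: 9.55, 9.57 and 9.57 in parental, 9.96, 9.99 and 9.97 in KD and 9.69, 9.79 and 9.69 in OE libraries. It rose by 0.41 in KD and by 0.15 in OE (adjusted p = 1.3e-13 and 7.7e-05 from limma). Genes that share a strand and a stretch of chromosome thus differed in opposite directions in KD.

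**Figure D3:**
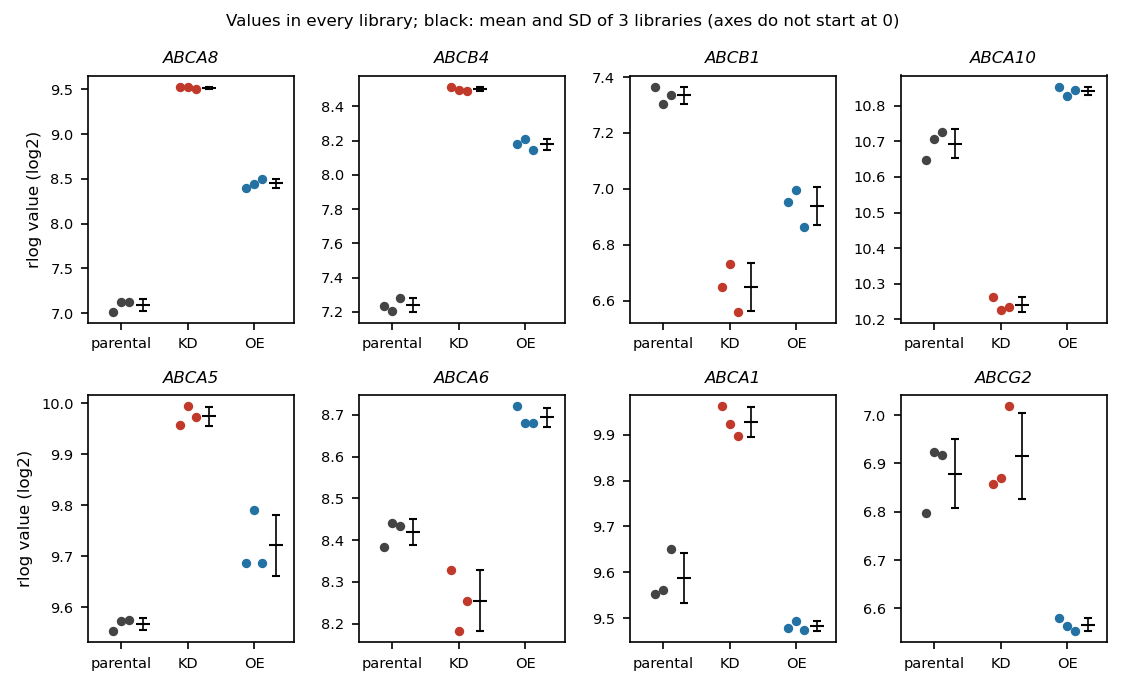
rlog (log2) of 8 members in each of the 9 libraries, with the mean and the SD of each group of 3. ABCA8 and ABCB4 are higher in both labelled groups, ABCB1 is lower in both, and ABCA10, ABCA6 and ABCA1 move in opposite directions.

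Beyond the cluster, other genes near ABCA8 were also higher in KD, and they are named here after their values were seen. LINC01482, with its start at -364 kb from that of ABCA8 (negative distances lie on the side away from the cluster), differed by 1.65 in KD and 0.17 in OE. FAM20A, a pseudokinase gene at -354 kb, differed by 1.07 and 0.22. PRKAR1A, a regulatory subunit of protein kinase A at -444 kb, differed by 0.63 and 0.11. All 3 were called in both comparisons, but their OE differences were far smaller than that of ABCA8. The median KD difference of the 118 other well expressed genes in the same 20-Mb block was -0.032.

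**Figure D4:**
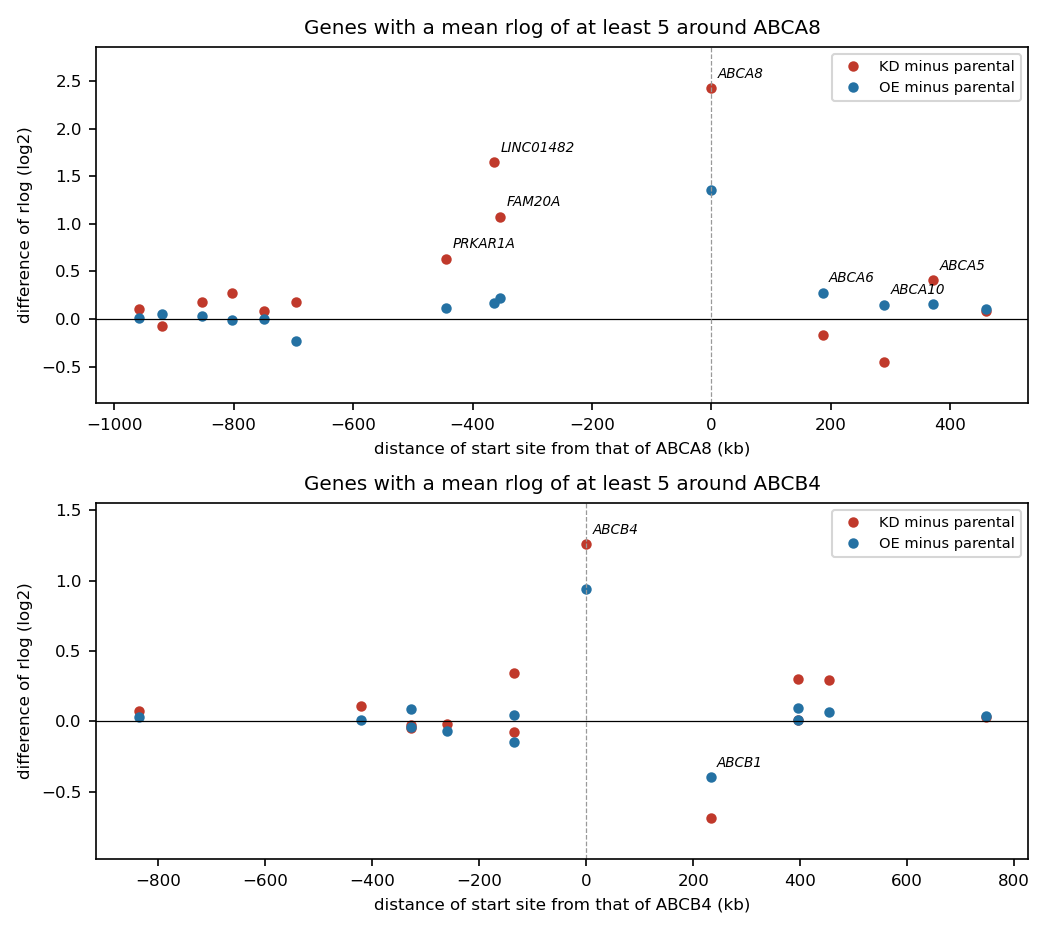
Difference of rlog (log2) from parental in KD and OE against the distance of each gene's start from that of ABCA8 and of ABCB4, in kb, for genes at or above a mean rlog of 5. ABCA10 (-0.45 in KD) and ABCB1 (-0.69) lie near a member that rose.

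Promoter sequences were searched for letters that members share. RefSeq promoters (GRCh38.p14, 250 bases before to 50 after a start) were at hand for 32 of the 42 members, with 50 starts. ABCA4, ABCA8, ABCB4, ABCB5, ABCC1, ABCC3, ABCC8 and ABCG1 were among those with no entry. Matches were sought on both strands for CACGTG (the E-box of MYC and related factors), ACGTG (the core bound by hypoxia-inducible factors, which CACGTG contains), CCAAT, TGACGTCA (the cAMP response element), TGACNNNGC (the antioxidant response element) and the DR4 repeat of LXR. CACGTG occurred in 8 of the 50 member promoters, from 7 genes, against 7.26% of all 35116 promoters. ACGTG was in 12 (21.4% of all), CCAAT in 11 (34.6%), TGACNNNGC in 11 (13.3%), TGACGTCA in 1, that of ABCE1 (1.85%), and DR4 in 0 (0.0199%). That exact DR4 form is held by only 7 of all 35116 promoters. Its absence here thus says nothing of LXR sites with other letters, which were not searched. Some genes have several starts with overlapping windows, and a match describes letters, not binding. From the cluster, the 250 bases before the start are shown for ABCA6 (chr17:69141896-69142145, minus strand) and ABCA9 (chr17:69060928-69061177, minus strand, 22 of the bases inside annotated exons), with matches in capitals. The capitals mark CCAAT, read on the reverse strand as ATTGG, in ABCA6, and CACGTG in ABCA9.
ABCA6: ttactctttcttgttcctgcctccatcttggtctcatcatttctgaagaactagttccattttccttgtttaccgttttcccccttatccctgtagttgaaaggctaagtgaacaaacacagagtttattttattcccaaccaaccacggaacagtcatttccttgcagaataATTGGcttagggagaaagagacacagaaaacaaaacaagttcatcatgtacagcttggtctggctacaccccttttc
ABCA9: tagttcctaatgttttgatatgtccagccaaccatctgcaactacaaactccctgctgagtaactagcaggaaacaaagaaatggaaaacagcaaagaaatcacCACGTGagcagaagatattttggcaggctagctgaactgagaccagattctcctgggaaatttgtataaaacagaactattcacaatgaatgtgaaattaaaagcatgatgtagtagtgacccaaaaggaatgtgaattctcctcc

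ABCB4 and ABCB1 also lie side by side, on the minus strand of chromosome 7, with starts 233 kb apart, and they moved in opposite directions. ABCB4 (ENSG00000005471, chr7:87401696-87480435, minus strand), a phosphatidylcholine translocator best known from bile, read 7.23, 7.20 and 7.28 in parental, 8.51, 8.49 and 8.49 in KD and 8.18, 8.21 and 8.15 in OE libraries. It was higher in all 6 labelled libraries than in any parental one. ABCB4 rose by 1.26 in KD, 2.40-fold on the rlog scale, and by 0.94 in OE (SE 0.038, adjusted p = 1.6e-23 and 2.8e-19 from limma). ABCB1 (ENSG00000085563, chr7:87503017-87713323, minus strand), which encodes the multidrug exporter P-glycoprotein, read 7.36, 7.30 and 7.34 in parental, 6.65, 6.73 and 6.56 in KD and 6.95, 6.996 and 6.87 in OE libraries. Here every labelled library lay below every parental one, and the KD libraries lay lowest. ABCB1 fell by 0.69 in KD and by 0.40 in OE (SE 0.048, adjusted p = 5.0e-14 and 3.9e-08 from limma). The 250 bases before its upstream start (chr7:87713296-87713545, minus strand), 28 of them inside annotated exons, are shown because ABCB1 moved against its neighbour, and they hold 0 of the motifs searched, whereas its other listed start has 2 CCAAT matches.
ABCB1: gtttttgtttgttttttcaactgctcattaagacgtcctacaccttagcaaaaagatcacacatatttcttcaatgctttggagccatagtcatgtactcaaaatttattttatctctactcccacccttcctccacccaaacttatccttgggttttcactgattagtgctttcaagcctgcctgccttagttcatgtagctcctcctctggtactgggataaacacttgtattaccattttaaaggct

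The other exporters of drugs and conjugates moved less. Of the 10 members listed for drug efflux, 2 were higher and 3 lower in KD, and 1 higher and 4 lower in OE, so 5 were called in each. Of all genes 53.7% were called in KD and 34.8% in OE, and of those at or above a mean rlog of 5, 71.7% and 50.3%. Of the 10 listed members 8 were at that level. ABCC1, the multidrug resistance protein studied in neuroblastoma, read 11.42, 11.41 and 11.43 in parental, 11.34, 11.37 and 11.34 in KD and 11.46, 11.50 and 11.50 in OE libraries. These groups did not overlap, yet the differences were small, -0.069 in KD and 0.068 in OE (adjusted p = 0.00406 and 0.00794 from limma). With block medians removed the OE difference was 0.11. ABCC4, an exporter of cyclic nucleotides and drugs, rose by 0.16 in KD, with 11.37, 11.37 and 11.32 against 11.20, 11.21 and 11.18 in parental libraries (adjusted p = 7.5e-08 from limma). Its OE difference of -0.042 was not called. Block medians lowered the KD difference of ABCC4 to 0.064 and gave -0.061 in OE, then called (adjusted p = 0.0192 from limma, the range over all alternatives being 0.0192 to 0.329).

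ABCC2, which exports conjugated bilirubin in liver, rose by 0.17 in KD (adjusted p = 6.3e-06 from limma), and its OE difference was 0.0076. ABCC5, a nucleotide analogue exporter, fell by 0.15 in KD (adjusted p = 7.8e-07), and its OE difference was 0.0072. The 76 other well expressed genes of its block had a median KD difference of 0.23, and with that removed ABCC5 stood at -0.38. Relative to its neighbours the fall of ABCC5 was thus larger. ABCC3 fell by 0.089 in OE (adjusted p = 1.4e-04 from limma), with a KD difference of 0.0041. ABCC10 was lower in OE by a difference of -0.092 (adjusted p = 0.0179 from limma), a call lost without parental replicate 1 (-0.073), parental replicate 3 (-0.068) or OE replicate 2 (-0.072), with block medians removed (-0.067) and with no variance trend. The OE call of ABCC10 thus did not hold throughout. Without parental replicate 3 its KD difference, 0.055 with all libraries, was called at 0.079 (adjusted p = 0.0486 from limma, with 0.0486 to 0.754 over all alternatives). ABCC6 and ABCC11, at mean rlog values of 4.06 and 3.60, were called in neither comparison. ABCC6 differed by -0.075 in KD and 0.076 in OE, and was called in KD without parental replicate 1 (-0.12) and in OE with block medians removed (0.12).

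ABCG2 (ENSG00000118777, chr4:88090150-88231628, minus strand), the breast cancer resistance protein, was the only ABCG member at a mean rlog of at least 5. Its libraries read 6.80, 6.92 and 6.92 in parental, 6.86, 6.87 and 7.02 in KD and 6.58, 6.56 and 6.55 in OE cells. The OE libraries lay below all others, while KD and parental libraries overlapped. ABCG2 fell by 0.31 in OE (SE 0.048, adjusted p = 3.4e-06 from limma), and its KD difference was 0.036 (adjusted p = 0.561). The KD value differs with the reference taken. The 34 other well expressed genes of the block had a median KD difference of 0.40, and relative to them ABCG2 stood at -0.37. It was then called in KD (adjusted p = 1.1e-07 from limma, with 1.1e-07 to 0.955 over all alternatives). It also changed sign without parental replicate 1 (-0.0044) or KD replicate 3 (-0.015). Among all 5 ABCG members 0 were called in KD by limma, where 53.7% of all genes were. All but ABCG2 lay under a mean rlog of 5, where calls were rarer. Of the 11980 genes called in KD, 10042 were among the 14000 at or above that level. ABCG1 alone, 1 of the 5, had an unadjusted p under 0.05 (a difference of -0.050). ABCG1 was called in KD with protein-coding genes alone (adjusted p = 0.0477 from limma), and stood at 0.042, not called, with block medians removed. ABCG4 was called in KD without parental replicate 3 (adjusted p = 0.0443 from limma).

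Sterol and phospholipid exporters were divided as well. Of the 7 listed members, 2 were higher and 1 lower in KD, and 1 higher and 2 lower in OE, which is 42.9% called in each, against 53.7% and 34.8% of all genes. ABCA1 (ENSG00000165029, chr9:104781006-104928155, minus strand) passes cholesterol and phospholipid to apolipoprotein A-I. It read 9.55, 9.56 and 9.65 in parental, 9.96, 9.92 and 9.90 in KD and 9.48, 9.50 and 9.48 in OE libraries. All KD libraries were above and all OE libraries below the parental ones. ABCA1 rose by 0.34 in KD (SE 0.030, adjusted p = 1.5e-11 from limma) and fell by 0.11 in OE (adjusted p = 0.00548). Its block of chromosome 9 went the other way in KD, with a median of -0.36 over 44 genes, and with block medians removed the differences were 0.69 in KD and -0.044 in OE. The OE value was then not called (adjusted p = 0.236 from limma), nor was it without parental replicate 3 (-0.074, adjusted p = 0.0696, with 0.00364 to 0.236 over all alternatives). The 250 bases before the ABCA1 start (chr9:104928156-104928405, minus strand) are shown because it moved in opposite directions in the labelled groups, and CACGTG is in capitals.
ABCA1: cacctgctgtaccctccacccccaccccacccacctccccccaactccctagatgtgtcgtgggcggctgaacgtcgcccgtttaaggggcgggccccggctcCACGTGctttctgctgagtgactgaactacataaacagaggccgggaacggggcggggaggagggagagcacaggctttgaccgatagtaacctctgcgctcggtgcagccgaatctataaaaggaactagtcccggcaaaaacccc

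Other ABCA members are given next. ABCA13 (ENSG00000179869, chr7:48171458-48647497, plus strand), which encodes the largest protein of the family, read 7.14, 7.21 and 7.27 in parental, 6.80, 6.62 and 6.67 in KD and 7.39, 7.39 and 7.24 in OE libraries. It fell by 0.51 in KD (SE 0.050, adjusted p = 2.5e-10 from limma). Its OE difference of 0.14, with parental and OE libraries overlapping, was called (adjusted p = 0.0343 from limma) but lost that call without parental replicate 1 (0.10), parental replicate 2 (0.14), OE replicate 1 (0.11) or OE replicate 2 (0.11), and with no variance trend. ABCA2, a lipid transporter abundant in neural tissue, had the highest mean rlog of its subfamily and fell by 0.17 in KD (adjusted p = 2.5e-07 from limma), with 11.02, 11.02 and 11.07 against 11.21, 11.16 and 11.23 in parental libraries. It lies in a block of chromosome 9 whose 163 other well expressed genes had a median of -0.35 in KD. Relative to that block ABCA2 was higher, by 0.18 (adjusted p = 7.4e-09 from limma, with 7.4e-09 to 3.1e-04 over all alternatives), so its direction depends on the reference. In OE the difference of ABCA2 was -0.030 (adjusted p = 0.352), and 0.073 relative to the block (adjusted p = 0.00794 from limma, with 0.00794 to 0.733 over all alternatives). ABCA7, a phospholipid transporter of the ABCA1 kind, was lower in both, by differences of -0.23 and -0.15. With block medians removed its OE difference was -0.096, still called.

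Mitochondrial members differed little. Of the 3 mitochondrial members with a value, 1 was called in KD and 0 in OE by limma, where also 0 had an unadjusted p under 0.05. Of all genes at or above a mean rlog of 5, 71.7% were called in KD and 50.3% in OE. The called member was ABCB10, which fell by 0.14 in KD. ABCB8, highest in mean rlog among the ABCB genes, differed by 0.050 in KD (adjusted p = 0.0717 from limma) and -0.019 in OE. Without KD replicate 1 the KD difference of ABCB8 was 0.080 and called (adjusted p = 0.00507 from limma, with 0.00301 to 0.377 over all alternatives), and with block medians removed it was 0.081, also called. In all, ABCB8 was called in KD under 5 of 16 alternatives. The others were a minimum mean rlog of 5, library medians removed and protein-coding genes alone.

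Among the peroxisomal members, ABCD3, an importer of branched-chain acyl-CoA, was lower in KD, from 10.98, 11.01 and 10.98 in parental to 10.87, 10.79 and 10.83 in KD libraries. ABCD3 fell by 0.16 in KD (adjusted p = 2.7e-07 from limma), and its OE difference was 0.020 (adjusted p = 0.561). The lysosomal ABCD4 was called in neither.

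Of the 4 soluble members that act in translation, 3 were lower in KD and 2 in OE. Lower calls were made for 26.9% and 18.0% of all genes, and for 5062 and 3682 of the 14000 at or above a mean rlog of 5. ABCE1 (ENSG00000164163, chr4:145098288-145129524, plus strand), which splits ribosomes after termination, read 10.52, 10.56 and 10.49 in parental, 10.23, 10.24 and 10.26 in KD and 10.44, 10.44 and 10.41 in OE libraries. The groups were apart, with KD lowest. ABCE1 fell by 0.28 in KD and by 0.094 in OE (adjusted p = 2.4e-11 and 0.00298 from limma). ABCF1 fell by 0.093 in KD and by 0.12 in OE (adjusted p = 1.4e-05 and 5.0e-07 from limma), and by 0.16 in KD with block medians removed. ABCF3 differed by -0.11 in KD, and by -0.34 relative to its block. The mean rlog of ABCF2 was 0.64 and was not read as its level, as the readthrough gene ABCF2-H2BK1 covers 37.1% of its exonic bases on the same strand. With block medians removed ABCF2 was called higher in both comparisons, by 0.038 and 0.039. Without that step it differed by 0.0067 in KD and 0.013 in OE, neither called. The well expressed genes of its block had median differences of -0.025 and -0.038. The calls thus came with that step and are not read as a change of ABCF2.

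The 15 members with a mean rlog under 5 lay between 0.64 and 4.97, and shrinkage limits what their differences can show. Their KD differences ran from -0.075 to 0.20, and 3 were called. In OE they ran from -0.052 to 0.24, and 2 were called. Of all 22290 genes, 11980 were called in KD and 7764 in OE. Of these, 10042 and 7039 were among the 14000 genes at or above a mean rlog of 5. The top of both ranges of difference is ABCA3, the surfactant lipid transporter of lung, which was higher in all 6 labelled libraries. ABCB5 lost its KD call without any 1 parental replicate, KD replicate 2 or KD replicate 3, and with no variance trend (0.024 to 0.054 over all alternatives). ABCD2 lost its KD call without parental replicate 1, parental replicate 3, KD replicate 2 or KD replicate 3, and with library medians removed (-0.081 to -0.050). Of ABC proteins under other symbols, TAP1 and TAP2 were not analysed here, and CFTR, a chloride channel, was called in neither comparison.

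Set directly against each other, the labelled groups differed in most members. Between OE and KD, 15 members were higher in OE and 12 lower, where 23.5% and 23.8% of all genes were. Among the 27 at a mean rlog of at least 5, 85.2% were called, against 64.1% of all genes at that level. The size rule was passed by 3, where 3.56% of all genes passed it. These were ABCA8 (-1.07), ABCA13 (0.64, adjusted p = 1.4e-12 from limma) and ABCA10 (0.60, adjusted p = 9.3e-20).

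ABCA1 was lower in OE than in KD by a difference of -0.44 (adjusted p = 3.3e-14 from limma). ABCA6 was higher in OE by 0.44 (adjusted p = 1.2e-11). Of the 10 drug efflux members 9 were called, 4 higher in OE and 5 lower. Called were 47.3% of all genes, beside the 64.1% given above for those at a mean rlog of at least 5. ABCB1 was higher in OE than in KD by 0.29, whereas ABCG2 was lower by a difference of -0.35 (adjusted p = 4.9e-06 and 2.8e-07 from limma). Removing block medians turned ABCG2 to 0.13 (adjusted p = 0.0260, with 7.2e-08 to 0.0260 over all alternatives) and ABCA2 from 0.14 to -0.11 (adjusted p = 5.5e-05 from limma, with 1.6e-06 to 0.00152). The direction of both members between the labelled groups therefore depends on their chromosomal reference. That step raised ABCC5 from 0.16 to 0.38 and took ABCA1 to -0.73. ABCB8 was lower in OE by a difference of -0.069 (adjusted p = 0.0150 from limma), a call lost without KD replicate 2 (-0.062), KD replicate 3 (-0.047) or OE replicate 1 (-0.062) and with no variance trend.

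Genes that work with the transporters were listed by pathway, and 113 of 125 had a value. In KD 40 were higher and 40 lower, and in OE 29 were higher and 39 lower. For the shares that follow, 71.7% of all genes at or above a mean rlog of 5 were called in KD and 50.3% in OE. Beside ABCA1, 10 of 18 genes of LXR signalling and sterol efflux were higher in KD and 4 lower. SREBF1, a regulator of lipid synthesis, rose by 0.47 in KD and CYP27A1, a sterol hydroxylase, by 0.52. RXRA, the partner receptor of LXR, fell by 0.87 (adjusted p = 1.4e-21 from limma), and by 0.52 with block medians removed. In OE 7 of the 18 were higher and 6 lower, so 77.8% and 72.2% of the list were called in KD and OE.

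Among 19 regulators of drug efflux genes, 7 were higher and 5 lower in KD, and 6 and 6 in OE (63.2% called in each). PPARG fell by 0.59, MYC by 0.41 and KEAP1, which holds NRF2 in check, by 0.31 in KD. With block medians removed the differences of PPARG and MYC were -0.26 and -0.16. EPAS1, a hypoxia-inducible factor, rose by 0.31 in OE. For glutathione synthesis and conjugation, which supplies substrates of the ABCC exporters, 10 of 19 were higher and 3 lower in KD, and 7 and 3 in OE, in all 68.4% and 52.6% called. MGST1, a membrane glutathione transferase, rose by 0.998 and MGST2 by 0.52 in KD, while GCLM, a subunit of the enzyme that begins glutathione synthesis, fell by 0.80. GSTA4 rose by 0.40 in OE.

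Of 17 peroxisomal partners of the ABCD members, 8 were higher and 5 lower in KD, and 7 and 4 in OE (76.5% and 64.7% called). SLC27A4, a fatty acid transport protein, fell by 0.72 in KD and ACAA1, a thiolase, by 0.43, with -0.37 and -0.18 left after block medians were removed. ACOX2 fell by 0.30 and EHHADH rose by 0.24, but with block medians removed they stood at 0.0055 and 0.0073, neither called. Of 22 haem and iron-sulfur genes, partners of the mitochondrial members, 14 were lower and 4 higher in KD and 11 were lower in OE. Called lower were 26.9% of all genes in KD and 18.0% in OE, and 5062 and 3682 of the 14000 with a mean rlog of 5 or more. No test of a list as a whole was run. HMOX1, which breaks down haem, fell by 0.69, ISCA1, an iron-sulfur assembly factor, by 0.55, and SLC25A38, a glycine carrier for haem synthesis, by 0.46 in KD. With block medians removed ISCA1 stood at -0.20 and SLC25A38 at -0.21. ALAD, an enzyme of haem synthesis, fell by 0.37, and with block medians removed it differed by -0.022, not called.

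Of 17 ribosome rescue and eIF2 genes, which share work with ABCE1 and ABCF1, 9 were lower and 1 higher in KD, and 8 lower and 2 higher in OE. In each comparison 58.8% of them were called, against 53.7% of all genes in KD and 34.8% in OE. Of all genes at or above a mean rlog of 5 the shares were 71.7% and 50.3%. EIF2S1, a subunit of eIF2, fell by 0.30 in KD, EIF5 by 0.26 and the release factor ETF1 by 0.22. EIF2S2 fell by 0.32, but differed by 0.0092 with block medians removed, not called. Of the 2 genes listed beside ABCC8 for the ATP-sensitive potassium channel, KCNJ11, at a mean rlog of 2.01, was called in OE (-0.067), and lost that call without parental replicate 1 (-0.048), OE replicate 2 (-0.064) or OE replicate 3 (-0.064) and with block medians removed (-0.054).

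**Figure D5:**
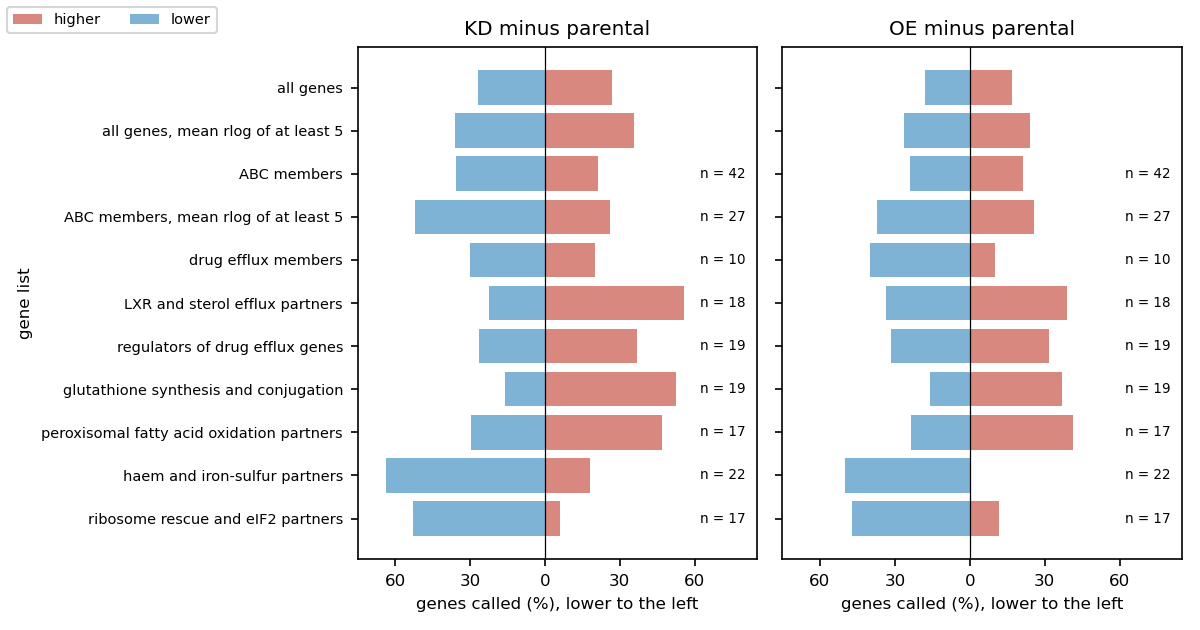
Share of each list shown, in percent of its genes with a value, called higher and called lower in KD and in OE, beside all genes in the table. In KD 26.9% of all genes were called higher, and of the 22 haem and iron-sulfur genes 14 were called lower.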

How the data were processed

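The deposited table holds log2 values (rlog) of 22290 genes. The authors trimmed reads with cutadapt, mapped them with HISAT2 to GRCh38, counted per gene with featureCounts (Subread), removed genes with few counts and took rlog in DESeq2; versions, annotation and strand setting were not stated. Symbols, biotypes, positions and exon lengths came from GENCODE 44, and 22195 genes had a symbol. All 9 libraries were fitted by group in limma 3.58.1 (R 4.3.3) with its variance prior following the mean level, adjusted by Benjamini-Hochberg over all genes and called at an adjusted p under 0.05. Tables used python 3.11.15, pandas 2.3.3 and numpy 2.4.6. Neighbours are genes of the same 20-Mb block with a mean rlog of at least 8, in blocks of at least 10 such genes. Named in full were ABCA8, the drug efflux members, members called with a difference over 0.3, the highest of each subfamily and up to 4 called genes per partner list. ABCA3, ABCA7, ABCA9, ABCB5, ABCB10, ABCD2, ABCF2, ABCF3, ABCG1 and ABCG4 were added after their values were seen. Some genes counted in the totals are not reported here by name. Members and lists were chosen with earlier results of these data known. No filter was applied; 3 empty columns were left out.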

Additional observations from a re-analysis of the deposited data

How the results depend on the processing

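Each result was recomputed with no variance trend, a minimum mean rlog of 5, library medians removed, the compared 6 libraries alone, each library left out in turn, 20-Mb block medians removed, a replicate block and, chosen after seeing the data, protein-coding genes alone. Called members ranged over these from 22 to 29 in KD, 16 to 22 in OE and 23 to 29 between OE and KD, and members past the size rule from 3 to 4 in KD and between OE and KD, with 2 throughout in OE. Called partner genes ranged from 72 to 83, 57 to 71 and 64 to 70. Of single-gene results, 2212 kept direction and side of the threshold, 44 lost a call, 16 gained one and 23 changed sign; causes were not tested beyond the neighbours' values given.

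With a replicate block (paired by number), 24, 19 and 27 members were called. Libraries of like number correlated by -0.071 to 0.14, and those of unlike number by -0.139 to 0.075. With 3 libraries per group these ranges cannot settle whether the numbers pair the libraries.

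With 1 library left out, TRAP1 in OE ranged from -0.012 to 0.042. The ranges were -0.015 to 0.065 for ABCG2, -0.0039 to 0.015 for ABCC3 and -0.035 to 0.0062 for EPAS1 in KD, and -0.014 to 0.025 for ABCC2 and -0.012 to 0.022 for ABCC5 in OE.

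Removing block medians gave TRAP1 0.064 in OE (adjusted p = 0.0343 from limma). In KD it gave ABCA2 0.18, ABCC3 -1.1e-04, ABCG2 -0.37, ACOX2 0.0055 and EIF2S2 0.0092. In OE it gave ABCA2 0.073, ABCB8 0.0073, ABCC5 -0.0027 and ABCD3 -0.0068. Between OE and KD it gave ABCA2 -0.11, ABCC11 -0.017, ABCF1 0.053, ABCG2 0.13, EHHADH 0.12 and EIF2S2 -0.017. The depth of each library cannot be read from these values, so what it limits was not tested.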
